A study of Mus musculus with 8 samples.

Results

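Malat1, Neat1, Meg3, Miat, Snhg11, Rian and Kcnq1ot1, 7 abundant or well-known long noncoding RNAs that stay largely in the nucleus, were followed in the lumbar spinal cord of male SOD1G93A mice with and without microglial Ager. The RNAs were chosen by name, with the genotype difference of Malat1 in these mice already known, and all 7 of the 55291 rows of the count table were found and passed the filter on low counts, as did 19470 genes in all. Because that choice used the genotype contrast, the genotype differences of the 7 RNAs are given as a description, and where calls of tests over all genes are counted among them, the count stands beside the share of all genes called and nothing is read from it. The GENCODE M21 annotation lists Snhg11 as protein coding, which goes against its place among noncoding RNAs.

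Of 8 male mice, each an independent animal, 4 were SOD1G93A Ager fl/fl Cx3cr1 Cre/+, called Ager-deleted, and 4 were SOD1G93A Ager+/+ Cx3cr1 Cre/+, called Cre-controls. The Ager-deleted animals were E1776, E5231, then E5248 and E5568, and the controls were E5386, E5642, then E6578 and E6732; values by mouse are given in this order. All were on the C57BL/6J background, carried the transgene for mutant human SOD1 that models amyotrophic lateral sclerosis, and carried one tamoxifen-inducible Cre allele at Cx3cr1, which is active in microglia and other Cx3cr1-expressing cells. The mice of both genotypes were given 5 injections of 0.2 µg tamoxifen at 12 weeks by the labels, a slightly earlier age than in the study's text, and the labels give their age as 120 days, whereas the study describes the tissue as end-stage. Ager encodes RAGE, the receptor for advanced glycation end products, and whole lumbar cord was sequenced, so that a change in cell number cannot be told apart from a change in RNA per cell.

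Long noncoding RNAs of this kind act largely in the nucleus. Malat1 is concentrated in nuclear speckles, the stores of splicing factors, and Neat1 is the scaffold of paraspeckles, which hold RNA-binding proteins such as TDP-43. Meg3 and Rian are expressed from the maternal copy of the imprinted Dlk1-Dio3 domain, and Kcnq1ot1 is expressed from the paternal copy of another imprinted domain, where it runs antisense to Kcnq1 and silences neighbouring genes. Miat forms its own nuclear domains, and Snhg11 hosts small nucleolar RNAs in its introns. The libraries were made from polyadenylated RNA, and these transcripts do not all end in the same way.

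Malat1 and Neat1 are neighbours on chromosome 19, and their 3' ends are shown because the libraries were selected for poly(A). The Malat1 gene lies on the minus strand of GRCm38 at chr19:5795690-5802672 as a single exon of 6983 bases. Its transcript is not given a poly(A) tail: RNase P cuts it in front of a tRNA-like element, and the end left behind is a genomically encoded A-rich tract held in a triple helix. In the sequence of chr19:5795982-5796051, in capitals, the tract holds an unbroken run of 12 A, and the 16 bases in capitals before it recur near the end of the long Neat1 transcript. The tRNA-like element itself is released as mascRNA, at chr19:5795924-5795981. Neat1 lies at chr19:5824708-5845478, 22036 bases from Malat1 on the same strand. Its short transcript (3004 bases, ending at chr19:5842307-5842366) carries the polyadenylation signal AATAAA, in capitals, and its long transcript (20771 bases, ending at chr19:5824708-5824767) ends on an A-rich stretch like Malat1.
Malat1 before mascRNA: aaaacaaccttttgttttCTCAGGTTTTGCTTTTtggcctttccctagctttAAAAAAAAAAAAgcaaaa
mascRNA: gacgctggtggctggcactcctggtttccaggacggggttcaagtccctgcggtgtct
Short Neat1 end: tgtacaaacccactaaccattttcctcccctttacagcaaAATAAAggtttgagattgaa
Long Neat1 end: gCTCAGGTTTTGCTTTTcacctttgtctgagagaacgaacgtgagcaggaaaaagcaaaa

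The other RNAs also hold encoded runs of A. The longest run in the longest annotated transcript was 16 bases in Meg3, 15 in Rian, 8 in Snhg11 and 4 in Miat, against a median of 6 over all genes tested that had a transcript. Kcnq1ot1, an unspliced antisense RNA of 93092 bases at chr7:143203458-143296549, held the longest, 41 bases in capitals in the stretch at chr7:143226930-143227000, and 0.0366% of the genes tested held a run at least as long. Malat1's run of 12 was matched or passed by 10.6%. How much of each transcript was captured through a tail or through an encoded run was not tested, and the counts per gene do not separate the short from the long Neat1 transcript.
Kcnq1ot1 A run: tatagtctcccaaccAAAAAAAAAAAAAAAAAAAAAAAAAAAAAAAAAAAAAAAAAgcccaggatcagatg

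The counts in the genes tested summed to between 31119100 and 40248300 per mouse. Ager, the deleted gene, was between 0.889 and 1.51 CPM in Ager-deleted mice and between 1.53 and 2.41 CPM in Cre-controls. The genotypes did not overlap, as in 3.88% of all genes in either direction. The highest Ager-deleted mouse, E5231, and the lowest control, E5386, each had 56 Ager counts, so their gap comes from library scaling alone. Some libraries carried RNA of other tissues. The summed level of 12 skeletal muscle markers was 964 CPM in E5386 and 1498 CPM in E5642, and lay between 14.2 and 31.7 CPM elsewhere. The summed level of 7 liver markers was 611 CPM in E6732 and between 1.42 and 2.84 CPM elsewhere, and the summed level of 5 Schwann cell markers was 8.56 CPM in E5386 and between 208 and 758 CPM elsewhere. The sum of 5 adipocyte markers was 132 CPM in E5386 and between 0.864 and 6.70 CPM elsewhere. That of 6 choroid plexus markers was 49.3 CPM in E6732 and between 14.8 and 22.2 CPM elsewhere. E5386, E5642 and E6732 are all Cre-controls, and the tissue that gave these reads was not tested. The share of mitochondrially encoded counts was between 2.66% and 4.07% in Ager-deleted mice and between 4.00% and 4.67% in Cre-controls. The 11 neuronal, 8 astrocyte, 8 oligodendrocyte and 10 microglial markers were all detected in these spinal cords.

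The 7 RNAs together took between 0.555% and 0.891% of the counts of a mouse. Per kilobase of exon, the level in Cre-controls was 176 CPM per kb for Snhg11, 167 for Meg3, 114 for Malat1, 45.3 for Neat1, 23.6 for Miat, 20.7 for Rian and 0.239 for Kcnq1ot1. In Ager-deleted mice the order was the same, with 181 CPM per kb for Snhg11, 175 for Meg3, 73.7 for Malat1 and 0.191 for Kcnq1ot1. Lengths joined all annotated exons of a gene, 20771 bases for Neat1, whose short transcript has 3004, and 18234 for Rian, whose longest has 8089. Another choice of length could change the order. Snhg11 and Meg3 did not differ beyond the spread between mice (SD 34.7 and 42.9 CPM per kb in Cre-controls), nor did Miat and Rian (SD 5.14 and 0.913 CPM per kb).

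Malat1 was the RNA whose genotypes did not overlap. Its level was 563, 405, 571 and 520 CPM in Ager-deleted mice, a mean of 515 ± 76.6 CPM (SD, n = 4). In Cre-controls it was 893, 964, 731 and 600 CPM, a mean of 797 ± 164 CPM (SD, n = 4). All 4 Cre-controls lay above all 4 Ager-deleted mice, but the lowest control, E6732, was close to the highest Ager-deleted mouse, E5248. The fitted log2 fold change of Cre-controls over Ager-deleted mice was 0.63 (SE 0.16, 1.55-fold), and 2.45% of the genes tested had a log2 fold change at least as large in either direction. The 2 highest mice were those with muscle RNA. Without these mice the log2 fold change was 0.38, and without E6732 as well, which leaves E6578 as the only control, it was 0.51. The parts of muscle RNA and of the mitochondrial share, which was also higher in most controls, in the Malat1 difference were not tested.

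Neat1, 22036 bases away, did not follow. Its level was 1146, 1175, 981 and 758 CPM in Ager-deleted mice and 1233, 839, 711 and 984 CPM in Cre-controls. The highest mouse, E5386, and the lowest, E6578, were both controls. Means were 1015 ± 191 CPM in Ager-deleted mice and 942 ± 224 CPM in Cre-controls (SD, n = 4 each), a log2 fold change of -0.11 (SE 0.18).

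**Figure D1:**
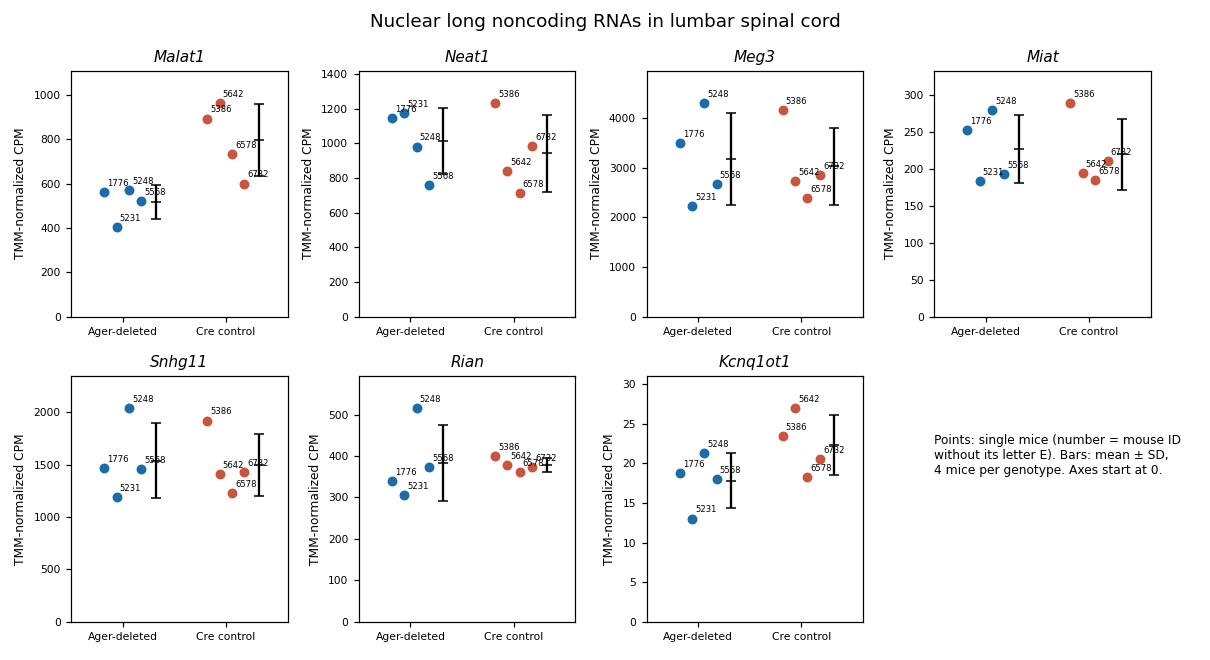
TMM-normalized CPM (y axis, starting at 0) of each of the 7 RNAs in 4 Ager-deleted and 4 Cre-control mice, with mean ± SD beside the points. The genotypes are apart only for Malat1, where controls range from 600 to 964 CPM and Ager-deleted mice from 405 to 571 CPM; the other RNAs overlap.

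Meg3 was the most abundant of the 7 by counts. Its level was 3488, 2220, 4303 and 2666 CPM in Ager-deleted mice and 4152, 2724, 2377 and 2854 CPM in Cre-controls. E5248 and E5386, of different genotypes, were the 2 highest mice. The log2 fold change was -0.07 (SE 0.23). Rian, downstream of Meg3 in the same domain, was at 339, 305, 516 and 374 CPM in Ager-deleted mice and at 400, 378, 360 and 373 CPM in Cre-controls. Its log2 fold change was -0.02 (SE 0.14). Rian varied little between controls, with a coefficient of variation of 4.41% against 24.1% in Ager-deleted mice; the difference in spread was not tested.

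Miat was at 253, 184, 280 and 194 CPM in Ager-deleted mice and at 290, 195, 185 and 210 CPM in Cre-controls, a log2 fold change of -0.05 (SE 0.17). Snhg11 was at 1472, 1191, 2042 and 1455 CPM in Ager-deleted mice and at 1923, 1410, 1234 and 1432 CPM in Cre-controls, a log2 fold change of -0.04 (SE 0.18). Both genotypes covered nearly the same range for both RNAs. Kcnq1ot1, the least abundant, was at 18.7, 13.0, 21.3 and 17.99 CPM in Ager-deleted mice and at 23.4, 27.0, 18.2 and 20.6 CPM in Cre-controls. It leaned the way of Malat1, with a log2 fold change of 0.33 (SE 0.16) and E5386 and E5642 above all Ager-deleted mice, but E6578 and E6732 lay within the range of the Ager-deleted mice. Without the mice with muscle RNA its log2 fold change was 0.13.

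Of the 7 log2 fold changes 2 were above 0, as were 48.0% over all genes tested, and the median was -0.04 against -0.0069 over all genes tested. The edgeR exact test with Benjamini-Hochberg adjustment called 0 of the 7, beside 0.0719% of all genes (0.0616% higher and 0.0103% lower in controls; 4.26% at an unadjusted p under 0.05), and the quasi-likelihood test called 0, beside 0.00514%. With common and tagwise dispersions the exact test called 1 of the 7, Malat1, beside 0.401% of all genes. In 1 of the 7 all controls exceeded all Ager-deleted mice, beside 1.91% of all genes, and in 0 all controls were below, beside 1.97% (3.88% for no overlap in either direction). Nothing is read from these counts, since the choice of the RNAs used this contrast.

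Lists of other nuclear RNAs and of proteins of nuclear bodies were counted next, beside the 0.0719% of all genes called; at that share, 0 calls in lists of 10 to 19 genes say little. Of 19 other nuclear long noncoding RNAs tested, the exact test called 0 after adjustment over all genes (1 at an unadjusted p under 0.05), with 13 log2 fold changes above 0 and a median of 0.05. The highest was Mir99ahg, host of microRNAs, at 4.55 ± 0.169 CPM in Ager-deleted mice and 5.85 ± 0.855 CPM in Cre-controls (SD, n = 4 each; log2 fold change 0.36, SE 0.13, adjusted p = 1). The lowest was Mirg, a microRNA host in the domain of Meg3 and Rian, with a log2 fold change of -0.24 (SE 0.23). Xist, which coats the inactive X chromosome, and its antisense RNA Tsix reached at most 14 and 1 counts in these male mice and were not tested.

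Of 17 snoRNA host genes apart from Snhg11 and Snhg14, 0 were called (0 at an unadjusted p under 0.05). Their median log2 fold change was 0.04, from -0.14 for Snhg20 to 0.20 for Snhg1. Of 16 mRNAs known for introns that are retained in the nucleus, 0 were called (2 at an unadjusted p under 0.05, both higher in controls), with 12 log2 fold changes above 0 and a median of 0.06; the highest was Tra2b, a splicing activator, at 0.20, and the lowest was Nktr at -0.11.

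Among proteins of the bodies that Malat1 and Neat1 occupy, 0 of 15 paraspeckle genes were called (0 at an unadjusted p under 0.05), from Matr3 at 0.24 to Rbm14 at -0.20, and 0 of 19 nuclear speckle genes (1 at an unadjusted p under 0.05), from the splicing factor Srsf1 at 0.17 to Srsf4 at -0.20. Median log2 fold changes were 0.04 and 0.01. The 10 genes of RNase P, RNase Z and METTL16, which cut or bind the Malat1 3' end, also had 0 calls (0 at an unadjusted p under 0.05), with 4 log2 fold changes above 0, from Rpp38 at 0.10 to Pop7 at -0.17. The quasi-likelihood test, and the exact test when run on common and tagwise dispersions, also called 0 in each of these 6 lists. All controls exceeded all Ager-deleted mice for 1 of 17 snoRNA hosts (Snhg1), 2 of 16 detained-intron mRNAs (Rbm39 and Ccnl1), 1 of 15 paraspeckle genes (Hnrnpk) and 2 of 19 speckle genes (Sf3b1 and Rbm25), beside 1.91% of all genes, and no list gene had all controls below, beside 1.97%. Of these, Rbm39 had a log2 fold change of 0.18 (SE 0.06) and Rbm25 one of 0.16 (SE 0.06), each with an adjusted p of 1 by the exact test; apart from Snhg1, these genes were named after their values were seen.

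**Figure D2:**
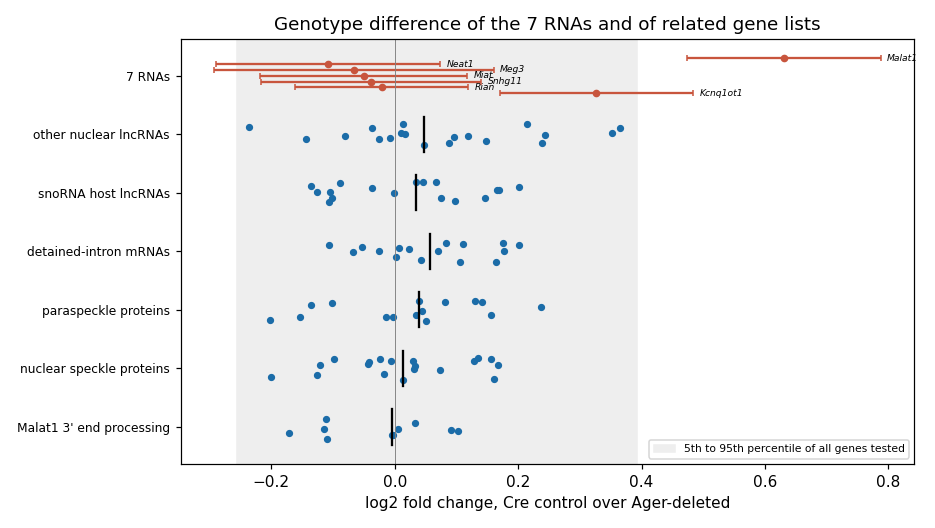
Log2 fold change of Cre-controls over Ager-deleted mice (x axis) for the 7 RNAs, with bars of 1 SE, and for the tested genes of 6 related lists, with black ticks at list medians and a grey band for the 5th to 95th percentile of all genes tested (-0.26 to 0.39). Malat1, at 0.63, is the one RNA drawn outside the band, and the list medians lie between -0.0040 and 0.06.

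Genes near the 7 RNAs were counted beside the same 0.0719% of all genes called. Of 32 tested genes within 100 kb of any of them, the exact test called 0 (0 at an unadjusted p under 0.05), and so did the quasi-likelihood test. The 10 neighbours of Malat1 other than Neat1 had log2 fold changes from -0.15 for Ltbp3, which binds latent TGF-β, to 0.14 for Kcnk7. Frmd8, 4224 bases from Neat1, was at 92.0 CPM in Ager-deleted mice and 88.1 CPM in Cre-controls.

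Values of the imprinted neighbours overlapped between the genotypes. In the Dlk1-Dio3 domain, the paternally expressed Dlk1 was at 43.7 ± 7.69 CPM in Ager-deleted mice and 43.5 ± 2.37 CPM in Cre-controls, and Rtl1, a retrotransposon-derived gene, at 6.34 ± 1.27 and 6.32 ± 0.658 CPM (SD, n = 4 each). Dio3 had between 2 and 10 counts per mouse and was not tested. In the Kcnq1 domain, Kcnq1, the potassium channel gene that contains Kcnq1ot1 on its opposite strand, was at 1.09 ± 0.158 CPM in Ager-deleted mice and 0.840 ± 0.284 CPM in Cre-controls, and Cdkn1c, a cell cycle inhibitor silenced by Kcnq1ot1, at 7.09 ± 1.19 and 8.05 ± 1.16 CPM. Neither was called (adjusted p = 1 by the exact test for each), and Phlda2 had at most 2 counts. The sources do not state the strand setting of the counting, so that reads from Kcnq1ot1 and Kcnq1 cannot be told apart with certainty, nor can those of Miat and Gm26953, which overlaps it on the opposite strand at 0.360 and 0.391 CPM.

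Mouse to mouse, within a genotype, the 7 RNAs did move, and some of them moved together. Each value was expressed as its deviation in log2 CPM from the genotype mean, which removes the genotype difference, and deviations were compared over 8 mice with permutation within genotype, for which 576 arrangements exist and 0.00174 is the smallest p. Of the 21 pairs, 18 had r above 0. The p-values of pairs are not adjusted for their number; of those under 0.05 for Pearson's r, those of Malat1 with Kcnq1ot1 and of Meg3 with Rian do not stay there when adjusted over the pairs. The mouse with the lowest level of 6 of the 7 RNAs was E5231, an Ager-deleted mouse; Neat1 was the exception.

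The closest relations were among Meg3, Miat and Snhg11. Meg3 and Miat had r = 0.98 (exact permutation p = 0.00174) and rho = 1 (exact permutation p = 0.00174), and r = 0.95 without E5248 and E5386, the 2 mice farthest from the median of Meg3. Meg3 and Snhg11 had r = 0.95 (exact permutation p = 0.00174) and rho = 0.95 (exact permutation p = 0.00347), and r = 0.85 without the same mice. Miat and Snhg11 had r = 0.91 (exact permutation p = 0.00174) and rho = 0.95 (exact permutation p = 0.00347), and r = 0.67 without them. Meg3 was raised by 0.49 on the log2 scale in both E5248 and E5386, one mouse of each genotype, and the fall in E5231 was shared. Of the genes tested, 0.0616% had an r with Meg3 at least as high as Miat and 0.370% at least as high as Snhg11. Among genes of at least 1 CPM that were closer to Meg3 than Miat was, Fndc8 had r = 0.99, L3mbtl1 0.99, Tonsl 0.99, Celsr3 0.98 and Trank1 0.98, named after their values were seen.

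Rian joined this group less firmly. Snhg11 and Rian had r = 0.85 (exact permutation p = 0.00694) and rho = 0.67 (exact permutation p = 0.127), and r = 0.70 without E5248 and E5386. Meg3 and Rian, transcribed from the same domain and strand, had r = 0.74 (exact permutation p = 0.0469) and rho = 0.67 (exact permutation p = 0.118), and without these mice r was 0.37. Miat and Rian had r = 0.63 (exact permutation p = 0.0642) and rho = 0.67 (exact permutation p = 0.118), and r = 0.10 without them. Both relations of Rian with Meg3 and Miat were thus weaker without E5248 and E5386. An r at least as high was held by 7.41% of the genes tested with Meg3 for Rian, by 11.8% with Miat for Rian and by 2.22% with Snhg11 for Rian.

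**Figure D3:**
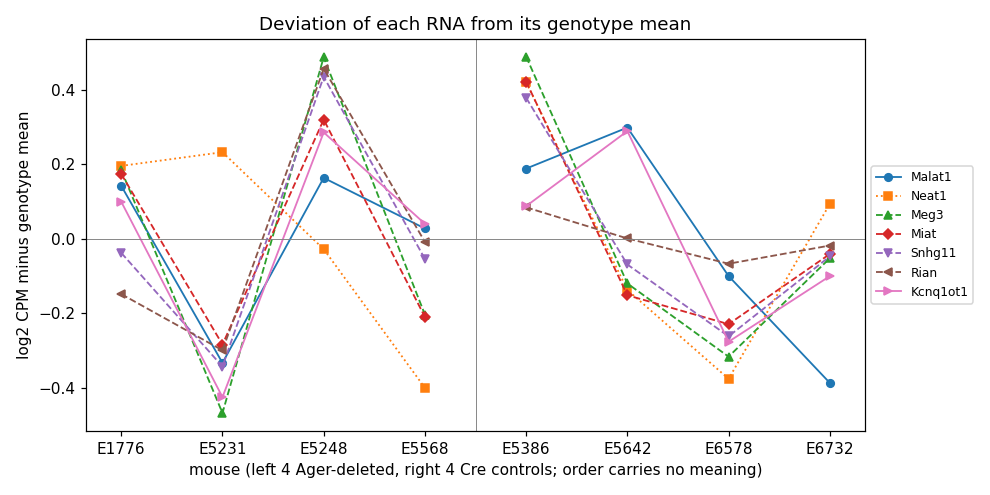
Deviation of log2 CPM from the genotype mean (y axis) of each RNA in each mouse (x axis), with a line per RNA within each genotype. Meg3, Miat and Snhg11 are at their highest in E5248 or E5386 and fall together in E5231, Malat1 and Kcnq1ot1 are highest in E5642, and Neat1 is above 0 in E5231, where the others are below 0.

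Malat1 was closest to Kcnq1ot1. Malat1 and Kcnq1ot1 had r = 0.83 (exact permutation p = 0.0208) and rho = 0.86 (exact permutation p = 0.0139), and r = 0.90 without E5231 and E6732, the 2 mice farthest from the median of Malat1. Of the genes tested, 0.596% had an r with Malat1 at least as high. Without the 2 mice with muscle RNA r was 0.75. With Meg3, Malat1 had r = 0.58 (exact permutation p = 0.170) and rho = 0.55 (exact permutation p = 0.188). With Snhg11 it had r = 0.56 (exact permutation p = 0.161) and rho = 0.43 (exact permutation p = 0.278), with Miat r = 0.50 (exact permutation p = 0.280) and rho = 0.55 (exact permutation p = 0.188), and with Rian r = 0.48 (exact permutation p = 0.214) and rho = 0.67 (exact permutation p = 0.0538). None of these passed 0.05, 6.95% of the genes tested had an r with Malat1 at least as high as Meg3, and without E5231 and E6732 r was 0.52, 0.49, 0.45 and 0.26 in the same order. The difference between the r with Kcnq1ot1 and those with the other RNAs was not tested.

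Malat1 and Neat1 had r = -0.05 (exact permutation p = 0.905) and rho = 0.02 (exact permutation p = 0.977). Without E5231 and E6732 their r was 0.57. Both of these mice had a Malat1 level below and a Neat1 level above their genotype mean. With Miat, Neat1 had r = 0.58, with Meg3 0.45, with Snhg11 0.33 and with Rian -0.11, none with an exact permutation p under 0.05. Among the 4 Cre-controls alone r was 0.94, 0.96, 0.95 and 0.92 in the same order. Among the 4 Ager-deleted mice it was 0.17, -0.01, -0.28 and -0.38. The difference between the genotypes in these r was not tested.

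**Figure D4:**
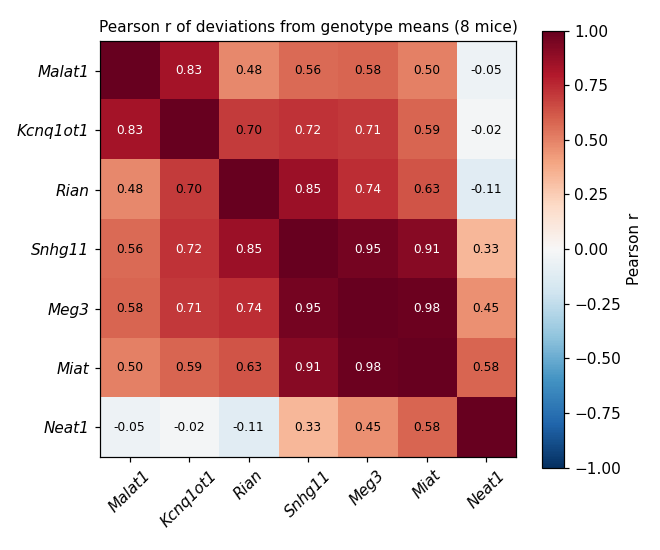
Pearson r (colour scale from -1 to 1, printed in each square) of the deviations from genotype means over 8 mice for each pair of the 7 RNAs. Meg3, Miat and Snhg11 form a block with r between 0.91 and 0.98, Malat1 is closest to Kcnq1ot1 at 0.83, and Neat1 is near 0 with Malat1, Kcnq1ot1 and Rian. Neat1 is at 0.58 with Miat, 0.45 with Meg3 and 0.33 with Snhg11, and each r pools both genotypes.

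Over all genes the relation to Malat1 did not pass. In an edgeR quasi-likelihood fit with genotype and the Malat1 deviation as terms, 0 of the 19470 genes passed after adjustment (3.8% had an unadjusted p under 0.05), Kcnq1ot1 having a slope of 0.82 (SE 0.23) and an adjusted p of 0.990. Malat1 fitted on its own deviation also missed the threshold, with a quasi-likelihood adjusted p of 0.884. When the Meg3 deviation was used in its place, a choice made after seeing the data, 12 genes (0.0616%) passed, all rising with Meg3, which was itself one of them, and 12.1% of all genes had an unadjusted p under 0.05. Miat passed with a slope of 0.75 (SE 0.08, quasi-likelihood adjusted p = 0.0261), and Snhg11, at 0.74 (SE 0.13), did not (quasi-likelihood adjusted p = 0.125). Rian (0.307), Kcnq1ot1 (0.368), Malat1 (0.488) and Neat1 (0.617) did not pass by the adjusted p of the same fit.

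The lists differed in how their genes moved with Meg3. Across the 19470 genes tested, 49.6% had an r of deviations with Meg3 above 0 and the median was -0.0065. All 19 speckle genes (median r = 0.67) and all 16 detained-intron mRNAs (median r = 0.66) had an r above 0. Pnisr was at 0.98, Nktr at 0.97, Srrm1 at 0.94, Son at 0.94 and Srrm2 at 0.93. The lowest were Srsf4 at 0.06 among speckle genes and Rbm39 at 0.11 among detained-intron mRNAs. Among nuclear long noncoding RNAs 15 of 19 had an r above 0, with Mirg at 0.95, Mir124a-1hg at 0.94, Snhg14 at 0.90 and Firre at 0.89. Most of the listed snoRNA host genes went the other way: 4 of 17 had an r above 0 and the median was -0.53. They ranged from Snhg10 at -0.87 and Zfas1 at -0.85 to Snhg20 at 0.50 and Snhg17 at 0.76. By name Snhg11 and Snhg14 are also such hosts, and Snhg14 was counted with the nuclear long noncoding RNAs. The contrast therefore depends on how the lists were drawn. Of 15 paraspeckle genes 12 had an r above 0 (median 0.45), and of the 10 genes of Malat1 3' end processing 3 did (median -0.13). Among paraspeckle genes, Tardbp, which encodes TDP-43, was at 0.94, while Nono was at -0.76. These genes were named after their values were seen, the 8 mice are the same for every gene, and the r values are a description without a test.

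With Malat1 the same lists gave weaker values, a median r of 0.42 for speckle genes, 0.43 for detained-intron mRNAs and -0.25 for snoRNA hosts, against -0.012 over all genes. An r without centring also carries the genotype difference of Malat1, so it favours genes that differ between the genotypes in the same direction. Over 8 mice without centring, the genes of at least 1 CPM most like Malat1 were Cep44, a centrosomal gene, at r = 0.95, Oxct1, an enzyme of ketone body use, at 0.94, Sepsecs at 0.94, B330016D10Rik at 0.94, Gm38162 at 0.93, the speckle and spliceosome gene Sf3b1 at 0.93, Gm14443 at 0.93, Zc3h15 at 0.93, 5430416N02Rik at 0.92 and Gm18290 at 0.92, out of 16080 genes. By deviations they were Ccnjl at 0.97, Gm50462 at 0.97, Atxn7, a chromatin regulator, at 0.96, Ccdc27 at 0.94 and the telomere-binding gene Terf1 at 0.93. Kcnq1 had an r of deviations with Malat1 of 0.80 and Cdkn1c one of -0.83.

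Values of other cell types moved with some of the 7 RNAs over the same deviations. The 10 microglial markers summed to between 1726 and 3188 CPM in Ager-deleted mice and between 2270 and 2625 CPM in Cre-controls. Their r with Rian was -0.89, and it was -0.76 for the 8 astrocyte, -0.62 for the 5 endothelial and -0.60 for the 8 oligodendrocyte markers. The 11 neuronal markers, between 3462 and 4699 CPM and between 3727 and 4431 CPM, had r = 0.74 with Rian, 0.22 with Meg3 and -0.69 with Neat1. The 6 motor neuron markers had r = -0.40 with Rian, and the 5 Schwann cell markers r = -0.73 with Neat1. The 5 blood markers, between 72.5 and 278 CPM and between 131 and 427 CPM, had r = -0.82 with Miat and -0.77 with Meg3. The 12 muscle markers had r = 0.69 with Malat1 and 0.61 with Kcnq1ot1, and the 7 liver markers r = -0.67 with Malat1. The r with the log2 of total counts lay between -0.27 and 0.45. With the mitochondrial share of counts r was 0.73 for Rian, 0.58 for Snhg11, 0.45 for Kcnq1ot1, 0.44 for Malat1, 0.33 for Meg3, 0.23 for Miat and -0.24 for Neat1. Each r rests on 8 mice that share their libraries, none was given a test, and the parts of cell makeup and of the mitochondrial share in the covariation were not tested.

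Because Meg3, Miat and Snhg11 moved together, their promoters were set side by side. RefSeq promoters on GRCm38.p6, from 250 bases before to 50 bases after the start, were found for 6 of the 7 RNAs, Neat1 excepted. Motifs searched on both strands were the cyclic AMP response element TGACGTCA, the box CCAAT and the box TATAAA, which 1.79%, 37.4% and 13.6% of 32851 promoters held. Meg3 (chr12:109540746-109541045, plus strand) held all of them, with the response element at position -57 from the start, CCAAT at -100 and overlapping TATAAA matches nearer the start, all in capitals. Neither Miat (chr5:112228899-112229198, minus strand) nor Snhg11 (chr2:158375463-158375762, plus strand) held any, and no match says only that these letters are not in this window.
Meg3 promoter: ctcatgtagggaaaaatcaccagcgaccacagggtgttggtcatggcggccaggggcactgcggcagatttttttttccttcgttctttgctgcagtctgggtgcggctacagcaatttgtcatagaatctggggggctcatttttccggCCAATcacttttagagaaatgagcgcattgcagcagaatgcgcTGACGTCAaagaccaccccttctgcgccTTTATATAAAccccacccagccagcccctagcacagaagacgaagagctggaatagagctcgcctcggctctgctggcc
Miat promoter: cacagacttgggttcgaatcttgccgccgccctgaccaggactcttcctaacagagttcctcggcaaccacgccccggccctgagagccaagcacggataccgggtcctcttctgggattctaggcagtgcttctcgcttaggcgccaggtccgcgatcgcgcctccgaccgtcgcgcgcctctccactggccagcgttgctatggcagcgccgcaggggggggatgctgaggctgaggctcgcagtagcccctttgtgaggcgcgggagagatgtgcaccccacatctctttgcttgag
Snhg11 promoter: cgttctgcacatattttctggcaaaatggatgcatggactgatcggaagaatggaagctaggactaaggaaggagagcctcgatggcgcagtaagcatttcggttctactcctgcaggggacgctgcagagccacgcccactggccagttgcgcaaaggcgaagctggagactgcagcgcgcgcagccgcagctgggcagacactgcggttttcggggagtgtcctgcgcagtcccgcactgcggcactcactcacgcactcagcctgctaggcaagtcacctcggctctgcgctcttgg

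Miat and Snhg11 had 25 and 21 CpG in these 300 bases, Meg3 13, Malat1 10, Kcnq1ot1 9 and Rian 0, against a median of 7 over all promoters. A second Meg3 start in RefSeq held 1 CpG and none of the motifs. The Kcnq1ot1 promoter (chr7:143296498-143296797, minus strand) held 3 copies of CCAAT, in capitals, a number reached by 3.37% of all promoters, and is shown because this repeat stands at the start of the imprinted transcript. The Malat1 promoter held none of the motifs, and neither did that of Rian.
Kcnq1ot1 promoter: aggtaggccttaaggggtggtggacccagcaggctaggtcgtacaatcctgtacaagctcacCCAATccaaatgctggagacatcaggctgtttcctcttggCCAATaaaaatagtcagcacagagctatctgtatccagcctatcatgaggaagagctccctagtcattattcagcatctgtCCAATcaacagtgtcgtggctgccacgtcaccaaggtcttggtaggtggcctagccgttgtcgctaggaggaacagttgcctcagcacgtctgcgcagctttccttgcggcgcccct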

How the data were processed

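Lumbar spinal cord mRNA of 8 mice was sequenced by the authors, who removed low-quality reads (Trimmomatic 0.36), aligned read pairs to mm10 with STAR 2.7.3a, and summed them per gene of the GENCODE annotation with featureCounts in Subread 1.6.3. The authors deposited raw counts for 55291 genes, used here for every value, and log2 TMM-normalized CPM (edgeR 3.26.8, per the labels) for 19470 genes, which served as a check of filter and normalization (largest difference 4.78e-06). Columns were assigned to mice by mouse ID.

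Genes were filtered with filterByExpr (minimum 10 counts), leaving 19470, and normalized with TMM in edgeR 4.0.16 under R 4.3.3. Values per mouse are CPM, log2 values use a prior count of 2, and fold changes are Cre-controls over Ager-deleted mice. The exact test used estimateDisp without a design matrix, with Benjamini-Hochberg adjustment over all genes at 0.05; standard errors are from the quasi-likelihood fit. Covariation within genotype used deviations from genotype means, exact two-sided permutation, and a quasi-likelihood fit of all genes. Values of p for the 21 pairs are printed unadjusted. At these depths 3 counts are at most 0.0975 CPM; this floor covers counting error only.

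The 7 RNAs, the gene lists, written by hand, and the tests were chosen with earlier results of these data known. The genes named are the 7 RNAs, the highest and lowest gene of each list, the 10 and 5 genes most like Malat1, and neighbours within 100 kb; others are said to be named after their values were seen, or are marker sums. Positions and transcripts are from GENCODE M21 on GRCm38, in which 19079 (98.0%) of the tested genes matched once by symbol.

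On simulated counts in which 200 genes carried a log2 difference of 1.5, the exact test for Cre-controls over Ager-deleted mice recovered 199 with 40 false calls among 19277 genes and the quasi-likelihood test 198 with 7. For the Malat1 deviation, with slopes of 2, the fit recovered 174 of 200 with 15 false calls among 19230 genes. Malat1 itself had smaller values, a log2 fold change of 0.63 and a slope of 1.00 on its own deviation. Recovery of effects of that size was not tested. Alternatives were other normalizations, filters and dispersions, DESeq2 1.42.0, limma-voom (limma 3.58.1), and mice or genes left out.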

Additional observations from a re-analysis of the deposited data

How the results depend on the processing

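No paired analysis was possible because the labels give the mice no replicate numbers that tie one genotype to the other. The log2 fold change of Malat1 stayed above 0 under all 21 settings, between 0.38 and 0.74. The exact test called 0 of the 7 RNAs, but 1, Malat1, was called with common and tagwise dispersions, with DESeq2 or without Cre-control E6732; leaving out single mice gave between 0 and 1. Nothing is read from these counts, since the choice of the RNAs used this contrast, and the cause was not tested. Over all genes, 14 were called, against 78 with common and tagwise dispersions, 25 with DESeq2, 1 with the quasi-likelihood test and 1 with limma-voom. The filter of more than 1 CPM in at least 4 mice gave 8. Leaving out mitochondrially encoded and muscle genes gave 6, and leaving out E5386 and E5642 gave 67. Leaving out single mice gave between 3 (without E5231) and 98 (without E6578). Without E6732, where Malat1 was called, 89 genes were called in all. The study, also with the edgeR exact test, reported 78 genes and describes Malat1 as differentially expressed. The main setting here, with 14 genes and without Malat1, thus departs from the study's result. Changing only the dispersions to common and tagwise gave 78 genes here too, Malat1 among them (adjusted p = 0.0168 by the exact test). Whether these are the study's 78 genes was not tested. The study also reports that a RAGE ligand raised Malat1 in cultured BV2 microglia-like cells in a RAGE-dependent way, which the counts used here do not cover.

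The lists and the neighbours had 0 calls under all 19 alternatives. In the fit on Malat1, 0 of the other 6 RNAs passed under all 13, which says nothing of stability, since Malat1 itself missed the threshold there. The median r among Meg3, Miat, Snhg11 and Rian was 0.88, between 0.82 and 0.92 over 15 alternatives, which were added after seeing the data. The median log2 fold change of the 7 RNAs was -0.04, between -0.17 and 0.13 when single mice were left out. The r of Malat1 with Kcnq1ot1 was 0.98 without E6732. Without E5386, E5642 and E6732, an alternative added after seeing the data that leaves a single control assumed to vary like the Ager-deleted mice, the log2 fold change was -0.51 for Neat1 and 0.04 for Kcnq1ot1. With 4 mice against 4, an exact permutation test cannot go below 0.0286.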
